A study of Mus musculus with 12 samples.

Results

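The mRNA of 10 cytokine genes was followed through 4 treatments of mouse splenic CD4+ T cells. The genes were Csf2 (GM-CSF), Il3, Csf1 (M-CSF), Lif, Osm, Tnf, Lta, Ltb, Tgfb1 and Tgfb3, which lie outside the Th1, Th2 and Th17 cytokine sets. They were taken by gene symbol from a table of 45777 genes, and all 10 were found. A gene was tested where its FPKM (a read level scaled to transcript length and library size) was at least 0.5 in at least 3 samples. All 10 cytokine genes were among the 15197 genes tested, and Il3 passed through its Control samples alone.

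CD4+ T cells of wild type C57BL/6 mice, 7 weeks old per the labels (the methods give an older range), were isolated from spleen with magnetic beads. Every culture received anti-CD3 (0.5 µg/ml) for 3 days, Control without a drug and the others with Metformin, FK506 (tacrolimus, a calcineurin inhibitor) or the combination (Metformin+FK506). Each group held 3 samples. Anti-CD28, which the methods list among the activation conditions, is not named in the labels, and the drug doses of these cultures are not given in the sources used here. The libraries held between 43402632 and 64290105 counted reads of polyA RNA. The labels do not say whether replicates were separate animals or cultures, so the p-values measure only the spread between these samples, which may be technical.

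Activated CD4+ T cells secrete these cytokines to steer other cells. GM-CSF and IL-3 act on myeloid progenitors and mature myeloid cells through a shared receptor beta chain, LIF and oncostatin M signal through gp130, TNF and the lymphotoxins act through TNF receptors, and TGF-beta restrains T cells through SMAD proteins. Transcription of several of them depends on calcineurin, which brings NFAT factors to the nucleus, and their mRNAs often carry AU-rich elements in the 3′ UTR that recruit decay proteins such as tristetraprolin (Zfp36).

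The AU-rich stretches are shown because they are a sequence feature shared by several of the genes. Each line gives a window of 30 bases of the 3′ UTR from GRCm38 (GENCODE M21), read 5′ to 3′ on the gene's strand, with every ATTTA in capitals. For these 4 genes the window was placed where ATTTA is densest in the UTR used, which for Il3 ends before the RefSeq gene does.
Csf2, chr11:54247325-54247354 (- strand): taaatATTTATTTATTTATTTATTTAtttt
Tnf, chr17:35199678-35199707 (- strand): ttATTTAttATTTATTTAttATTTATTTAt
Lif, chr11:4272414-4272443 (+ strand): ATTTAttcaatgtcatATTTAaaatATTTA
Il3, chr11:54265303-54265332 (- strand): atgccatcaaatgtcttatcaATTTAtcta
The Csf2 and Tnf windows each held 5 ATTTA pentamers, overlapping in Csf2 and in 3 groups in Tnf, the Lif window held 3 and the Il3 window held 1.

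Over the whole 3′ UTR, Csf2 had 9 ATTTA pentamers within 317 bases, and 0.0585% of 1711 genes with a UTR within 20% of that length had as many. Each such share counts the gene itself, so that no other gene of this set reached the number of Csf2. Tnf had 8 within 764 bases, against 0.346% of genes of like length with as many. Lif had 7 in a longer UTR of 3180 bases, a number reached by 38.7% of like UTRs. Osm had 6, Csf1 had 4, Lta had 3, Il3 and Tgfb1 had 1 each, and Ltb and Tgfb3 had 0. The Il3 UTR used has 101 bases and ends at base 54265303. The RefSeq gene runs on to base 54265085, and that part was not scanned, here or for the longer form below. The longer form TTATTTATT was found in Csf2 (4 times), Tnf (5), Lif (2) and Lta (1), that is in 4 of the 10 genes against 7.30% of 21661 coding genes. ATTTA itself was found in 8 of 10, against 62.5% of those genes. These matches describe letters in the sequence only.

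The promoters of Lif, Lta, Tnf and Ltb are shown because Lif fell furthest with FK506 with all samples in the fit, while the other 3 are neighbours that did not move alike. They run from 250 bases before to 50 bases after the start site (RefSeq, GRCm38.p6) and were listed for 8 of the 10 genes, without Osm and Tgfb3. For Lta the start used lies 227 bases inside the 5′ end of the annotated RefSeq gene, so most of that window is within the gene. Capitals mark the NFAT core GGAAA and the AP-1 motif TGANTCA on either strand, so that TTTCC is the same core read on the other strand.
Lif, chr11:4257318-4257617 (+ strand): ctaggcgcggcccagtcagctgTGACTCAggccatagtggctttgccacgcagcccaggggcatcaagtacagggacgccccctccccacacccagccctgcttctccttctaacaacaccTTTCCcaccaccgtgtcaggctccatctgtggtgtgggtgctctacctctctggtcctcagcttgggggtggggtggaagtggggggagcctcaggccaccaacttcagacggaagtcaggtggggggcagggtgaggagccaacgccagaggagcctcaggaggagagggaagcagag
Lta, chr17:35205302-35205601 (- strand): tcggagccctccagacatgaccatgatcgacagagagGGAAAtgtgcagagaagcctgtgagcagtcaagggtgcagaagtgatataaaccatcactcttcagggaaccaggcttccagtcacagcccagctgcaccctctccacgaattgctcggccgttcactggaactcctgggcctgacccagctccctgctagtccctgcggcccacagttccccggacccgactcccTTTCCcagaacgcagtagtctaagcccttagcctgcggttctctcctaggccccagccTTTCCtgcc
Tnf, chr17:35201958-35202257 (- strand): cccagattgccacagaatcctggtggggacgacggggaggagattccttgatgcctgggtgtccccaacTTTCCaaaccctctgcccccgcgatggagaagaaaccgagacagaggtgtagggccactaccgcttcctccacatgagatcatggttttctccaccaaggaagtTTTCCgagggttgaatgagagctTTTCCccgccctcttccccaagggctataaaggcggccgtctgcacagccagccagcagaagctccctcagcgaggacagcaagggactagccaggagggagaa
Ltb, chr17:35194257-35194556 (+ strand): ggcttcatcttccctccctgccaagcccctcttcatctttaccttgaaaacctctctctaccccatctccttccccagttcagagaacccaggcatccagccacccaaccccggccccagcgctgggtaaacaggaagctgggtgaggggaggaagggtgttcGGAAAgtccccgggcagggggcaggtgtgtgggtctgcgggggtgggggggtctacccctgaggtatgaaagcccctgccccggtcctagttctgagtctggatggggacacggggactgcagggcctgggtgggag
The core GGAAA occurred 3 times in each of the Csf2, Csf1, Tnf and Lta promoters, once in those of Il3, Lif and Ltb, and 0 times in that of Tgfb1. At least 1 match was present in 61.3% of 32851 promoters and at least 3 in 9.42%. Among the 8 cytokine promoters TGANTCA occurred in Lif alone, against 7.81% of all promoters. Csf1, which rose with FK506, thus had as many GGAAA matches in this window as Csf2, which fell. The RefSeq start of Csf2 lies 232 bases upstream of its GENCODE start. The Csf2 window therefore ends before the GENCODE start, and the bases next to that start were not scanned.

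Several of the genes are neighbours in GRCm38.p6. On chromosome 17, Ltb lies 3061 bases from Tnf and Tnf 1157 bases from Lta. On chromosome 11, Csf2 lies 15185 bases from Il3, and Osm 16541 bases from Lif, in each case with 0 annotated genes between. The pairs on chromosome 11 fell together with FK506, whereas in the group on chromosome 17 Ltb rose, Tnf fell slightly and Lta fell about 10-fold (values below).

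**Figure D1:**
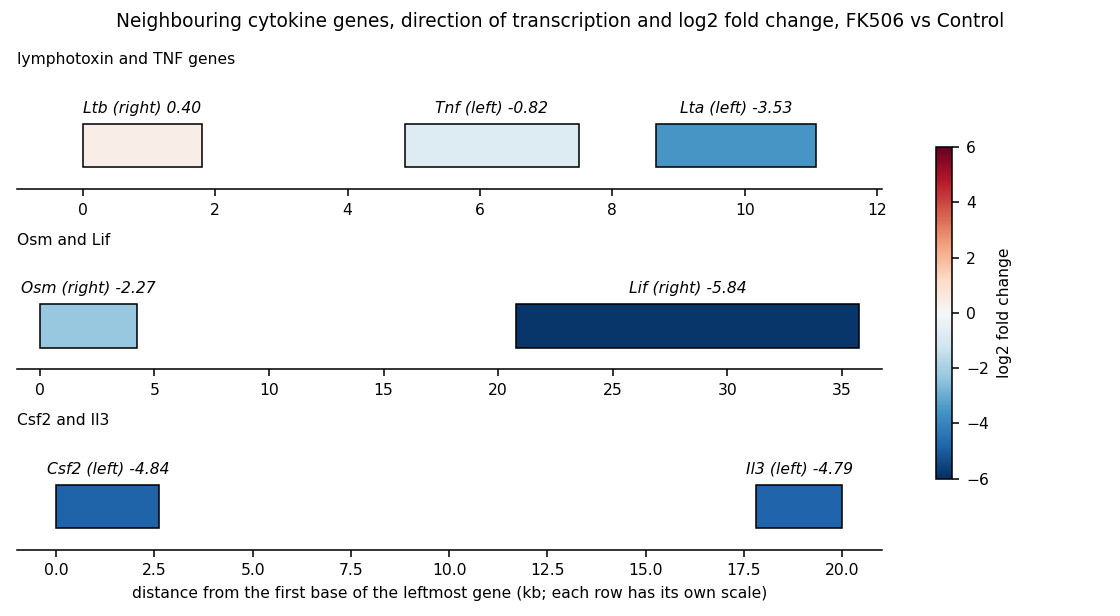
Position of the neighbouring cytokine genes (x axis, kb from the first base of the leftmost gene, a separate scale for each row), with the direction of transcription and, in colour and in figures, the log2 fold change of FK506 against Control. Csf2 and Il3 changed by -4.84 and -4.79, Osm and Lif by -2.27 and -5.84, and Ltb, Tnf and Lta by 0.40, -0.82 and -3.53.

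With FK506, 7 of the 10 genes fell against Control (Csf2, Il3, Lif, Osm, Tnf, Lta and Tgfb3), 2 rose (Csf1 and Ltb) and Tgfb1 did not pass the threshold. Il3 could be tested only because it was high in Control, and without it 6 genes fell with FK506, with Metformin and with both. Among all genes tested 39.6% were lower and 41.3% higher in that comparison. Metformin lowered the same 7 genes, though the call of Il3 was lost in DESeq2 (adjusted p = 0.0680). The Metformin call of Tnf (edgeR adjusted p = 0.0395) was lost under most of the alternatives, given with Tnf below. The difference between the drugs was not tested. The log2 fold changes of Tgfb3 lay within their errors of each other (-1.95 with Metformin and -2.01 with FK506), and scaled to T cell genes (-1.90 and -1.67) or in limma on log2(FPKM + 1) (-1.35 and -1.28) that with Metformin was the larger. Csf1 and Tgfb1 rose with Metformin and Ltb did not pass, and among all genes tested 27.4% were lower and 28.6% higher. With Metformin+FK506 the 7 genes were lower than in Control and Csf1 and Ltb higher, beside 39.6% lower and 42.1% higher of all genes tested. The median log2 fold change over the 10 genes was -2.14 with FK506, -1.08 with Metformin and -2.02 with both, against medians of 0.02, 0.01 and 0.03 over all genes tested. These 3 comparisons share the Control samples.

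Changes are log2 fold changes from edgeR's quasi-likelihood test on the counts, with standard errors, and p-values are adjusted over the 15197 genes by the Benjamini-Hochberg method with 0.05 as the threshold. Levels are FPKM, which is scaled to length and can be compared between genes. In Control the order was Lta (228 FPKM), Ltb (200), Lif (133), Tgfb1 (77.3), Tnf (36.8), Osm (24.5), Csf2 (21.0), Tgfb3 (4.73), Csf1 (3.54) and Il3 (1.26), and each gene lay above the next in all 3 samples. With FK506 the order became Ltb (307), Tgfb1 (90.9), Tnf (24.3), Lta (22.8), Csf1 (10.9), Osm (5.87), Lif (2.68), Tgfb3 (1.36), Csf2 (0.835) and Il3 (0.0448), and the samples of Tnf and Lta overlapped. With Metformin, Ltb (196) and Lta (115) led, and the samples of Osm and Lif, and of Csf2 and Csf1, overlapped. Summed over the 10 genes, the level was 730 FPKM in Control, 467 under FK506, 469 under Metformin and 483 under the combination.

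**Figure D2:**
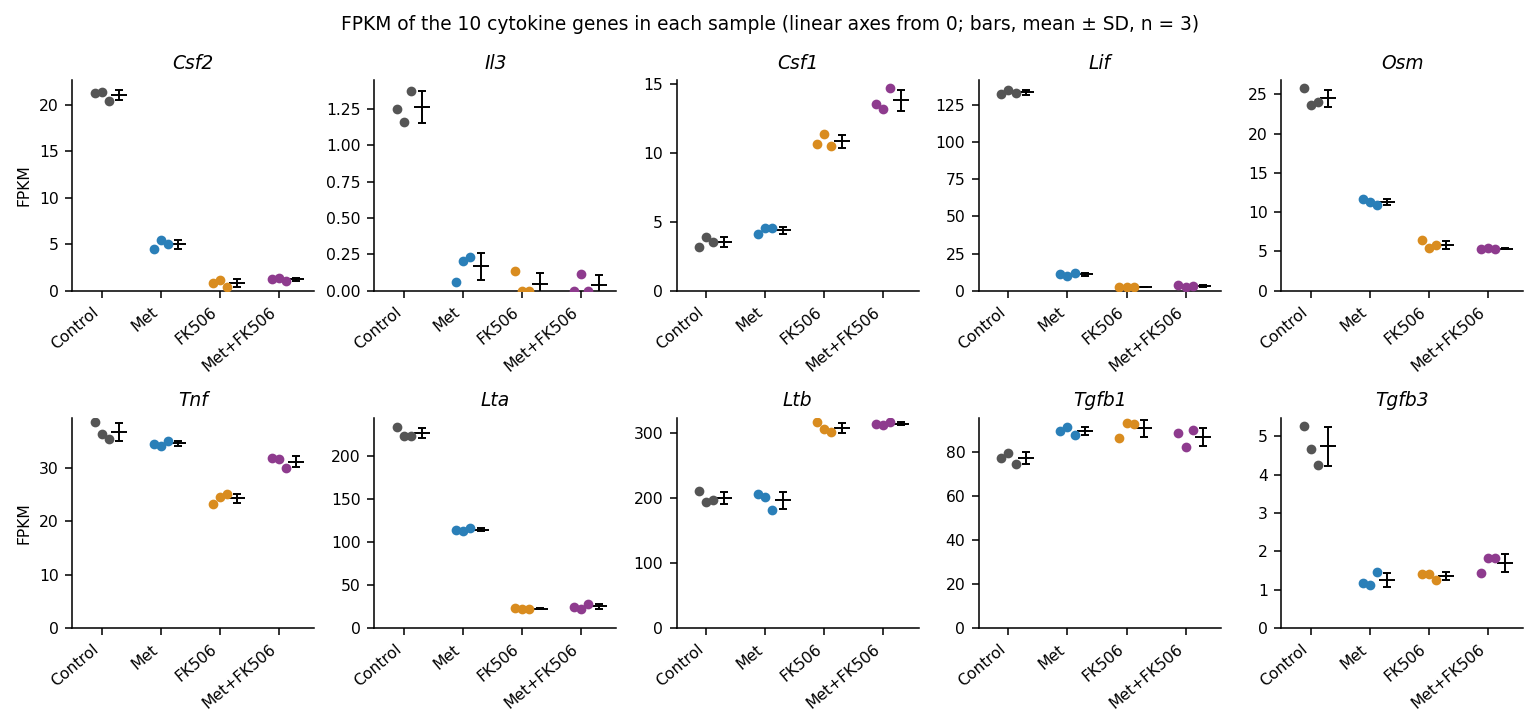
FPKM (y axes, linear, each from 0) of the 10 cytokine genes in each of the 12 samples by group, with mean ± SD beside the points (n = 3). Lif and Lta are far lower in all FK506 samples than in Control (133 to 2.68 and 228 to 22.8 FPKM on average), while Csf1 and Ltb are higher (3.54 to 10.9 and 200 to 307).

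The colony-stimulating factors moved apart: Csf2 and Il3 fell with every treatment and Csf1 rose. Csf2 encodes GM-CSF, which drives the growth and activation of myeloid cells. Its FPKM was 21.3, 21.4 and 20.4 in the 3 Control samples, 4.46, 5.48 and 4.997 with Metformin, 0.883, 1.21 and 0.417 with FK506, and 1.29, 1.37 and 1.01 with Metformin+FK506. All Control samples lay above all Metformin samples, and these above every sample with FK506, while the FK506 and Metformin+FK506 samples overlapped. The Control mean was 4.23 times the Metformin mean, 25.2 times the FK506 mean and 17.2 times the mean with both. On the counts the log2 fold change was -4.84 ± 0.21 with FK506 (adjusted p = 2.09e-12), -2.12 ± 0.18 with Metformin (3.22e-08) and -4.23 ± 0.20 with both (6.53e-12). The replicates differed most with FK506, where the counts were 57, 80 and 22.

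Il3 encodes interleukin-3, a growth factor for early myeloid cells, mast cells and basophils, and was the lowest of the 10 genes. It had 56, 60 and 73 counts in Control, 4, 10 and 12 with Metformin, 8, 0 and 0 with FK506, and 0, 8 and 0 with Metformin+FK506. Every Control sample was above every treated sample, and 4 of the 6 samples with FK506 had no read. The log2 fold change was -4.79 ± 0.75 with FK506, -2.87 ± 0.63 with Metformin and -4.71 ± 0.75 with both. Since Il3 entered the test only through its high Control samples, these values are a description and their p-values support nothing. The sizes of the FK506 changes rest on a single sample in each group and ranged from -9.07 to -4.20 with FK506 when replicates were left out in turn.

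Csf1 encodes M-CSF, the survival factor of macrophages, and took the opposite course. FPKM was 3.16, 3.89 and 3.56 in Control, 4.11, 4.53 and 4.53 with Metformin, 10.7, 11.4 and 10.5 with FK506, and 13.6, 13.2 and 14.7 with both. The 4 groups did not overlap and were ordered Control, Metformin, FK506 and Metformin+FK506. The log2 fold change against Control was 0.28 ± 0.07 with Metformin (adjusted p = 0.00320), 1.38 ± 0.07 with FK506 (1.51e-11) and 1.75 ± 0.07 with both (6.53e-13). Myeloid and stromal markers, given with the receptors below, rose in the same samples, and their part in the rise was not tested. With FK506 the order of Csf1 and Csf2 was turned: Csf2 was above Csf1 in every Control sample and below it in every sample with FK506.

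The IL-6 family genes Lif and Osm both fell, Lif by more. Lif encodes leukemia inhibitory factor, which sustains stem cells and is made by activated T cells. Its FPKM was 132, 135 and 133 in Control, 11.1, 10.0 and 11.7 with Metformin, 2.76, 2.63 and 2.64 with FK506, and 3.69, 2.84 and 3.01 with Metformin+FK506. No sample of one group overlapped another group, and the Control mean was 12.2 times that with Metformin, 49.7 times that with FK506 and 41.8 times that with both. On the counts, Lif changed by -5.84 ± 0.07 with FK506 (adjusted p = 1.94e-19), -3.64 ± 0.06 with Metformin (1.11e-16) and -5.55 ± 0.06 with both (3.51e-19). With all samples in the fit, Lif had the largest fall of the 10 genes in each of these comparisons.

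Osm encodes oncostatin M, which acts on stromal cells and hepatocytes. FPKM was 25.8, 23.6 and 24.0 in Control, 11.7, 11.3 and 10.9 with Metformin, 6.42, 5.41 and 5.79 with FK506, and 5.32, 5.44 and 5.29 with both. Control lay above Metformin and Metformin above both groups with FK506, which overlapped each other. The log2 fold change was -1.15 ± 0.07 with Metformin (adjusted p = 3.73e-10), -2.27 ± 0.07 with FK506 (1.86e-14) and -2.38 ± 0.07 with both (1.13e-14).

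Within the TNF family, Lta fell steeply, Tnf fell little and Ltb rose. Tnf encodes the inflammatory cytokine TNF. Its FPKM was 38.6, 36.4 and 35.3 in Control, 34.5, 34.2 and 35.0 with Metformin, 23.3, 24.5 and 25.1 with FK506, and 31.9, 31.7 and 29.98 with Metformin+FK506. FK506 gave the lowest samples, and the samples with both drugs lay between FK506 and Metformin without overlap. Tnf changed by -0.82 ± 0.05 with FK506 (adjusted p = 7.37e-11) and by -0.43 ± 0.05 with both (2.80e-07). The Metformin change of -0.12 ± 0.05 (adjusted p = 0.0395) did not pass when any replicate other than Control replicate 3 was left out, with values between -0.13 and -0.09. It was also lost in limma on log2(FPKM + 1) (-0.09, adjusted p = 0.103), on log2(FPKM + 0.1) (-0.09, 0.101) and on quantile-normalized FPKM (-0.02, 0.784). In edgeR it was lost scaled to T cell genes (-0.07, adjusted p = 0.284) and with a replicate block (-0.12, 0.0593).

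Lta encodes lymphotoxin alpha, a secreted TNF relative that also joins Ltb in a membrane complex, and was the highest of the 10 genes in Control. FPKM was 234, 224 and 224 in Control, 114, 113 and 117 with Metformin, 23.5, 22.3 and 22.7 with FK506, and 25.1, 22.6 and 28.0 with both. Control samples were above Metformin samples and these above the groups with FK506, which overlapped. The log2 fold change was -1.02 ± 0.05 with Metformin (adjusted p = 3.65e-11), -3.53 ± 0.05 with FK506 (4.24e-18) and -3.37 ± 0.05 with both (8.44e-18).

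Ltb encodes lymphotoxin beta, which both T and B cells make and which organises lymphoid tissue. FPKM was 211, 193 and 196 in Control, 207, 201 and 182 with Metformin, 316, 305 and 301 with FK506, and 313, 312 and 316 with both. The groups without FK506 overlapped each other, and so did those with FK506, with a gap between the pairs. Ltb rose by 0.40 ± 0.05 with FK506 (adjusted p = 4.18e-07) and by 0.46 ± 0.05 with both (8.79e-08). The Metformin difference was -0.06, with a 95% interval from -0.15 to 0.04. Lta and Ltb were thus at 228 and 200 FPKM in Control and at 22.8 and 307 FPKM with FK506. B cell markers also rose with FK506: their summed FPKM ranged from 62.9 to 66.9 in Control, 87.2 to 102 with Metformin, 886 to 926 with FK506 and 427 to 458 with both, and all 10 of them rose with FK506. All 10 were lower with both drugs than with FK506, beside 15% of all genes tested, where Ltb did not pass (0.05, adjusted p = 0.401). With Metformin 8 were higher and 1 lower than in Control, beside 28.6% and 27.4% of all genes tested. The part of B cells in the rise of Ltb was not tested, and in bulk RNA fewer cells of a type and less RNA per cell cannot be told apart.

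The TGF-beta genes differed from each other as well. Tgfb1, the main TGF-beta of lymphocytes, had an FPKM of 77.5, 79.9 and 74.5 in Control, 89.7, 91.4 and 88.2 with Metformin, 86.5, 93.3 and 93.0 with FK506, and 88.7, 82.3 and 90.3 with both. All treated samples were above all Control samples in FPKM, and the treated groups overlapped. On the counts only the Metformin rise of 0.18 ± 0.04 passed (adjusted p = 0.000969). With FK506 the difference was 0.02 (95% interval -0.07 to 0.10) and with both -0.02 (-0.11 to 0.07). In limma on log2(FPKM + 1) these were 0.23 (adjusted p = 0.000308) and 0.17 (0.00292), where the median of all genes was 0.19 and 0.17. In limma on quantile-normalized FPKM they were 0.32 (adjusted p = 1.48e-05) and 0.33 (1.04e-05), where that median was -0.03 and -0.01.

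Tgfb3 encodes another TGF-beta, made at low level here. FPKM was 5.27, 4.68 and 4.25 in Control, 1.17, 1.12 and 1.45 with Metformin, 1.41, 1.42 and 1.25 with FK506, and 1.44, 1.83 and 1.83 with both. Control was above all treated samples. The treated groups were close: Metformin overlapped FK506, and the highest Metformin sample exceeded the lowest sample with both. The log2 fold change was -1.95 ± 0.13 with Metformin (adjusted p = 3.23e-09), -2.01 ± 0.13 with FK506 (4.75e-10) and -1.67 ± 0.13 with both (4.37e-09).

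**Figure D3:**
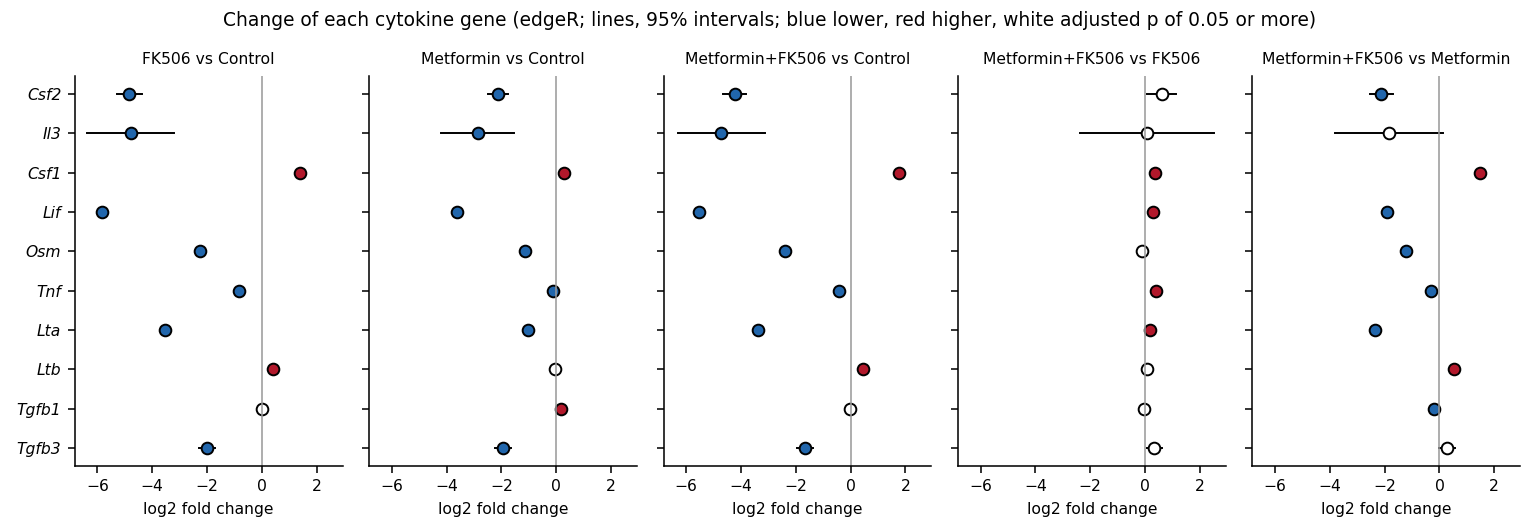
Log2 fold change (x axis, edgeR) of each cytokine gene in the 5 comparisons of groups, with 95% intervals (blue, lower; red, higher; white, adjusted p of 0.05 or more). FK506 and the combination gave similar values against Control (Lif -5.84 and -5.55), and the changes between the combination and FK506 lie near 0, from -0.11 to 0.60.

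Against FK506 alone, 4 of the 10 were higher with both drugs, Csf1 (0.37 ± 0.07, adjusted p = 0.000461), Lif (0.29 ± 0.07, 0.00377), Tnf (0.39 ± 0.05, 9.64e-06) and Lta (0.16 ± 0.05, 0.0321). Among all genes tested 15.6% were higher and 15% lower. By edgeR 0 of the 10 genes were lower, also at an unadjusted p under 0.05, and DESeq2 and limma on log2(FPKM + 1) gave 0 as well. Csf2 was 0.60 higher (95% interval 0.09 to 1.12) but did not pass (adjusted p = 0.0714). It passed in DESeq2 (0.0187) and without FK506 replicate 2, where the value was 0.98. Tgfb3 was 0.34 higher (0.06 to 0.63, adjusted p = 0.0658) and passed without Metformin+FK506 replicate 1. The Lta call was lost when any replicate but Metformin+FK506 replicate 2 was left out (0.08 to 0.18), with RLE size factors (0.15, adjusted p = 0.0511), with no filter (0.14, 0.0908), in limma with either pseudocount (0.13 and 0.14, 0.106 and 0.111) and scaled to T cell genes (0.03, 0.655). The Lif call was lost in limma with either pseudocount (0.18 and 0.23, adjusted p = 0.0769 and 0.0636) and scaled to T cell genes (0.16, 0.0942).

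Against Metformin alone, 8 of the 10 changed, a share close to that of all genes tested, of which 37.9% were lower and 40.3% higher. Csf2 (-2.12 ± 0.20, adjusted p = 7.27e-08), Lif (-1.91 ± 0.06, 4.42e-14), Osm (-1.23 ± 0.07, 8.25e-11), Tnf (-0.31 ± 0.05, 1.40e-05), Lta (-2.35 ± 0.05, 6.19e-16) and Tgfb1 (-0.20 ± 0.04, 0.000209) were lower with both drugs than with Metformin. Csf1 (1.46 ± 0.07, adjusted p = 7.09e-12) and Ltb (0.52 ± 0.05, 2.30e-08) were higher. The Tgfb1 call was lost in limma with either pseudocount (-0.04 in both, adjusted p = 0.367) and scaled to T cell genes (-0.04, 0.421), and the value was 0.03 on quantile-normalized FPKM. Il3 differed by -1.84 (95% interval -3.83 to 0.14) and Tgfb3 by 0.29 (-0.003 to 0.57). Without Metformin+FK506 replicate 2, the only one of its group with an Il3 read, the Il3 difference was -6.19 (adjusted p = 0.00552), and it also passed in limma with a pseudocount of 0.1 (-0.98, 0.0463) and on quantile-normalized FPKM (-0.38, 0.000340). Tgfb3 passed without Metformin replicate 3 (0.41) or Metformin+FK506 replicate 1 (0.40). Tgfb3 also passed in DESeq2 (adjusted p = 0.0495), in limma with a pseudocount of 1 (0.0174) or 0.1 (0.0135) and scaled to T cell genes (0.45, 0.00708), and was at -0.05 on quantile-normalized FPKM.

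The effect of Metformin was then compared with and without FK506 by an interaction term, the log2 difference between the effect on top of FK506 and the effect in cells without it. It was positive and past the threshold for 6 of the 10 genes and negative for 1, against 22.5% and 24% of all genes tested. For Lif, Metformin changed the mRNA by -3.64 without FK506 and by 0.29 with it. For Csf2 the values were -2.12 and 0.60, for Tgfb3 -1.95 and 0.34, and for Lta -1.02 and 0.16. Osm (-1.15 and -0.11) and Tnf (-0.12 and 0.39) followed the same order. None of the 7 genes called lower with Metformin without FK506 (Tnf and Il3 not under every alternative) passed as lower on top of it, except Osm when scaled to T cell genes (-0.24). Tgfb1 (0.18 and -0.04) went the other way, and Csf1 (0.28 and 0.37), Ltb (-0.06 and 0.05) and Il3 (-2.87 and 0.07) did not pass. For Il3 the interval of the difference ran from -0.03 to 5.91, and the value was 7.23 without FK506 replicate 1 and -1.41 without Metformin+FK506 replicate 2. The Il3 interaction passed under some of the alternatives and uses the Control samples through which Il3 entered the test, so it is given as a description only.

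**Figure D4:**
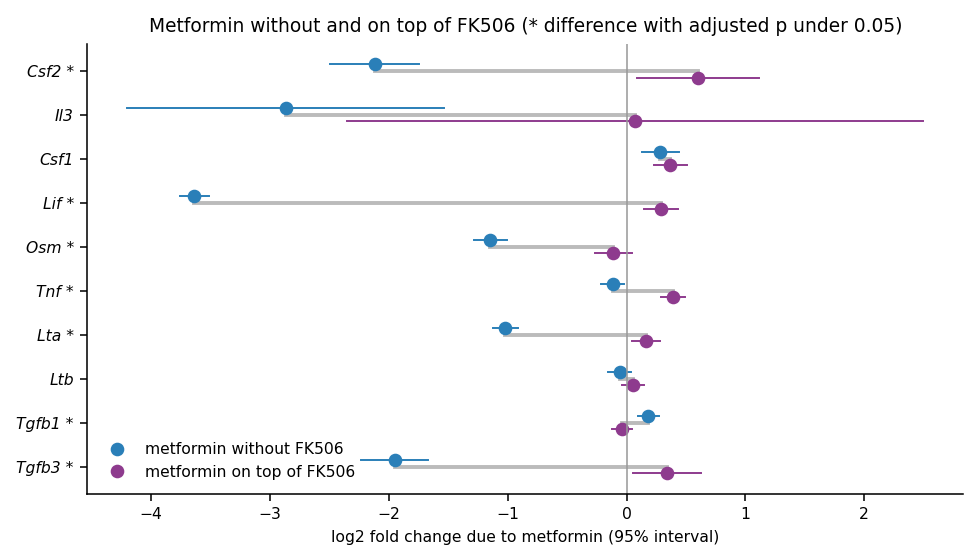
Log2 fold change due to Metformin (x axis, 95% intervals) without FK506 (blue) and on top of FK506 (purple) for each cytokine gene, with a star where the difference passed the threshold. The grey bar is longest for Lif, from -3.64 to 0.29, and short for Csf1, from 0.28 to 0.37.

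Libraries with FK506 also held more mRNA of other cell types, so each library was in addition scaled to its summed counts of 10 T cell genes. This moved the median of all genes by 0.34 with FK506, 0.21 with both drugs and 0.05 with Metformin, each against Control, and raised the share of higher calls with FK506 from 51.1% to 67.3%. Under this scaling, all 7 genes that fell with FK506 were still lower, among them Lif (-5.50), Csf2 (-4.50) and Lta (-3.19), and Tnf moved to -0.47 (adjusted p = 2.61e-07). With both drugs Tnf moved to -0.21 against Control (adjusted p = 0.00132) and to -0.14 against Metformin (0.0193). Csf1 (1.72) and Ltb (0.75) were still higher, and Tgfb1 was called higher with FK506 (0.36, adjusted p = 7.73e-07) and with both (0.19, 0.000655). Against FK506 the combination then had 2 genes higher, Csf1 (0.24) and Tnf (0.26), and 2 lower, Osm (-0.24, adjusted p = 0.0138) and Tgfb1 (-0.17, 0.00584). In that comparison the share of higher calls over all genes fell to 18.5%, from 50.9%. The interaction of Metformin and FK506 kept its sign for Lif (3.75), Csf2 (2.55), Tgfb3 (2.11), Lta (1.00), Osm (0.86), Tnf (0.33) and Tgfb1 (-0.40), each past the threshold.

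The receptors of these cytokines were counted from a list. Of 15 receptor genes, 13 were higher and 2 lower with FK506, 8 higher and 4 lower with Metformin, and 13 higher and 2 lower with both. Of all genes tested 41.3% were higher with FK506, 28.6% with Metformin and 42.1% with both. For 5 of the 15 (Csf2rb, Csf2rb2, Csf1r, Lifr and Osmr) the filter was passed through samples with FK506 alone, so that these had to differ and their calls are a description. Of the other 10, 8 were higher and 2 lower with FK506, with Metformin and with both. Csf2rb, the beta chain shared by the GM-CSF and IL-3 receptors, was at 0.397 ± 0.059 FPKM (SD, n = 3) in Control and 0.326 ± 0.058 with Metformin, and reached 99.2 ± 3.3 with FK506 and 65.5 ± 4.6 with both. Csf2rb2, its IL-3 specific homologue in mice, was at 0.117, 0.0891, 45.3 and 40.6 FPKM in the same order. The reads of these near-identical genes may have been shared in the counting, which makes the split between them uncertain. Csf1r, the M-CSF receptor of macrophages, had 3 counts or fewer in every Control and Metformin sample and was at 13.2 ± 0.9 FPKM with FK506, at least 856-fold higher than Control (floor of 3 counts per library). The alpha chains moved less: Il3ra was at 12.4 FPKM in Control and 10.4 with FK506 (log2 fold change -0.44), and Csf2ra was at 5.54 ± 2.61 and 18.5 ± 1.5, where the counts gave a log2 fold change of 1.04. The FPKM of Csf2ra did not follow its counts, since the Control samples had 2.52, 7.15 and 6.94 FPKM and 1010, 1269 and 1232 counts.

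Among the gp130 receptors, Il6st (gp130 itself) was at 5.75 FPKM in Control and 11.5 with Metformin, and reached 26.8 with FK506 and 30.5 with both. Lifr rose from 0.0128 to 1.12 FPKM with FK506. Osmr stayed under 1 FPKM in every group. The TNF receptor Tnfrsf1b rose from 13.6 FPKM in Control to 91.5 with FK506 and 121 with both, and Tnfrsf1a from 12.04 to 18.2 and 20.4. Ltbr, the lymphotoxin beta receptor, rose from 0.899 to 6.40 FPKM with FK506 and was at 0.319 with Metformin, and Tnfrsf14, which binds lymphotoxin alpha, rose from 17.8 to 35.6. Of the TGF-beta receptors, Tgfbr1 (3.29 to 9.65 FPKM) and Tgfbr2 (18.5 to 69.8) rose with FK506, while Tgfbr3 (13.3 to 4.32), a co-receptor, fell.

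Markers of several other cell types also rose in the samples with FK506. The summed FPKM of 10 myeloid markers ranged from 6.52 to 6.68 in Control, 8.98 to 10.2 with Metformin, 1345 to 1396 with FK506 and 896 to 1008 with both, and the macrophage genes C1qa, Adgre1, Fcgr1 and Spic were at 0 in all Control samples. Dendritic cell markers (6 genes) ranged from 2.60 to 2.80 in Control and 60.7 to 67.4 with FK506, and stromal markers (4 genes) from 0.308 to 0.408 and 5.04 to 7.94. The stromal sum was 0.297 to 0.435 with Metformin and higher with both drugs (10.7 to 13.4) than with FK506. The myeloid and dendritic cell sums were lower with both (39.5 to 42.4 for the latter) than with FK506. In that comparison the stromal and myeloid sums joined unlike moves. Of 3 stromal genes tested 1 was higher, 1 lower and 1 did not pass. Of 9 myeloid genes tested 2 were higher, 2 lower and 5 did not pass, beside 15.6% higher and 15% lower of all genes. The highest genes of these sums were Cdh5 (3.55 FPKM with FK506 and 9.66 with both) and Lyz2 (981 and 539). Neutrophil markers (6 genes) ranged from 2.84 to 3.15 in Control, 0.0561 to 0.230 with Metformin, 27.6 to 36.5 with FK506 and 17.8 to 19.3 with both, where with FK506 Ly6g fell from 3.03 to 0.175 FPKM and the other 5 genes were at 0 in Control. Basophil and mast cell markers (8 genes) ranged from 12.6 to 14.4 in Control, 6.03 to 6.15 with Metformin, 7.48 to 12.9 with FK506 and 2.08 to 2.82 with both. That sum joined opposite moves, since Cyp11a1 was at 12.8 FPKM in Control and 0.505 with FK506, while the basophil protease gene Prss34 was at 0 in Control and at 5.36, 6.11 and 3.07 with FK506, and at 0 with both. CD8 T and NK markers (6 genes) ranged from 12.5 to 14.6 in Control, 17.1 to 19.3 with Metformin, 9.57 to 10.5 with FK506 and 11.7 to 14.0 with both, and of the 3 that were tested all were higher with Metformin and 2 lower with FK506. The 10 T cell markers, which include Cd3e and Cd4, summed to 2178 to 2238 FPKM in Control, 2091 to 2203 with Metformin, 1911 to 2026 with FK506 and 2049 to 2141 with both, and all 10 had a mean of at least 0.5 FPKM in every group. This sum, on which the scaling to T cell genes rests, also joined opposite moves: with FK506 4 of the 10 were higher and 6 lower (log2 fold changes from -1.21 to 0.29), with Cd3e going from 152 to 194.9 FPKM and Cd4 from 140.3 to 199, but Cd2 from 423 to 212 and Cd5 from 409 to 321. The part of the other cell types in the rises of Csf1, Ltb, the receptors and the pathway genes given below, or in the levels of Tnf, was not tested.

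**Figure D5:**
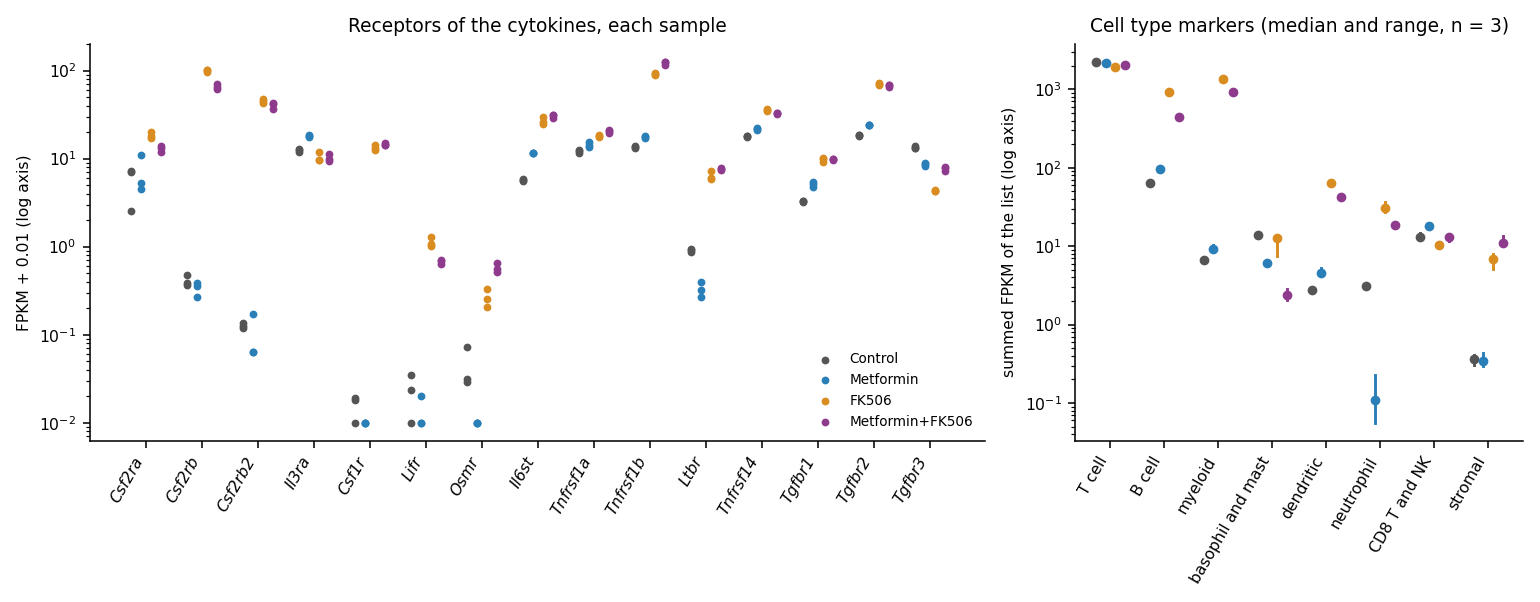
Left, FPKM + 0.01 (log axis) of 15 receptor genes in each sample by group. Right, summed FPKM (log axis) of marker lists by group, as median and range (n = 3). Csf2rb is near 0.397 FPKM in Control and 99.2 with FK506, and the myeloid markers are at 6.52 to 6.68 and 1345 to 1396.

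Other genes of these pathways were counted from lists. Of 11 genes of JAK-STAT signalling and its feedback, 8 were lower and 3 higher with FK506, and 9 lower and 2 higher with Metformin. Of all genes tested 39.6% were lower and 41.3% higher with FK506, and 27.4% and 28.6% with Metformin. The feedback inhibitors Cish (-3.76 ± 0.04, adjusted p = 2.25e-19) and Socs3 (-2.67 ± 0.06, 1.76e-16) had the largest falls of this list with both drugs, and Jak1 (1.18 ± 0.03) and Tyk2 (0.79 ± 0.04) rose. Of 12 genes of NF-kB and the TNF response, 10 were higher and 2 lower with FK506, and 4 higher and 5 lower with Metformin. In this list, with both drugs, Nfkbie (1.52 ± 0.05) and Relb (1.15 ± 0.04) rose, and the subunit genes Nfkb1 (-1.21 ± 0.03) and Nfkb2 (-0.64 ± 0.03) fell. The median change with FK506 was -0.66 for the JAK-STAT list and 0.63 for the NF-kB list, beside 0.02 for all genes tested.

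Of 13 genes of TGF-beta activation and SMAD signalling, 12 were tested, and 8 were higher and 3 lower with both drugs than in Control, beside 42.1% and 39.6% of all genes tested. Lrrc32 (2.45 ± 0.05), which holds latent TGF-beta at the cell surface, and the inhibitor Smad7 (1.34 ± 0.07) rose most, and Ltbp3 (-1.005 ± 0.14) and Itgav (-0.32 ± 0.05) fell. Against FK506, 9 of the 12 were higher with both drugs and 3 did not pass, beside 15.6% higher of all genes tested. Over all these lists, receptors included, 22 genes were higher and 19 lower against FK506, and scaled to T cell genes 14 were higher and 33 lower. Of 10 genes of cytokine mRNA decay, 7 were higher and 1 lower with FK506, and 8 higher and 2 lower with both, where the shares over all genes are those just given for both drugs, and 41.3% and 39.6% with FK506. Among them Zfp36 (2.03 ± 0.04), which encodes tristetraprolin, and its relative Zfp36l1 (2.13 ± 0.04) rose, while Khsrp (-0.62 ± 0.03) and Hnrnpd (-0.15 ± 0.05) fell. All 3 genes of TNF shedding were higher with FK506 and with both, among them the sheddase Adam17 (0.62 ± 0.04 with both) and its partner Rhbdf2 (0.41 ± 0.06). Of 8 calcineurin and NFAT genes, 4 were higher and 3 lower with both, close to the shares over all genes. Ppp3ca (1.99 ± 0.09) and Nfatc3 (1.11 ± 0.04) rose, and Fkbp1a (-1.77 ± 0.04), which encodes the FK506 binding protein, and Nfatc2 (-0.62 ± 0.04) fell.

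The genes whose levels followed those of Csf2, Il3, Lif and Tnf most closely were found by Pearson's r of log2(FPKM + 1) over the 12 samples, which share the 4 treatments. For Csf2 they were Ripk2 (r = 0.996), Ero1l (0.994) and Dars (0.994). For Il3 they were Gadd45g (0.992), Endog (0.989) and 9530082P21Rik (0.989). For Lif they were Il21 (0.999), which went from 13.3 FPKM in Control to 0.176 with FK506, Ccnd3 (0.999) and Gm10358 (0.999), whose reads may be shared with other copies. For Tnf they were Thy1 (0.984), Hnrnpul1 (0.976) and Ckb (0.976). The r values of Tnf were lower than those of the other 3 cytokines, and Thy1, like Tnf, was lowest with FK506 (68.4 FPKM) and higher with both drugs (105).

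Overlapping annotated genes could share reads with some of the cytokines, since strand use in the counting is not given in the sources used here. The overlapping gene held 0 to 7 counts for Csf2 (Gm12223), 0 to 37 for Csf1 (Gm40121), 17 to 136 for Lta (Mir6974) and 44 to 126 for Ltb (Mir6973a). For Il3 it held 0 counts (LOC115487722). Apart from Il3, every cytokine gene had at least 22 counts in each sample.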

How the data were processed

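The authors deposited a count table of 45777 genes, with whole-number read counts, and FPKM values (scaled to library size and transcript length). Another 12 columns of values per sample were not used. The submitters' processing notes name bcl2fastq 2.20.0, Trimmomatic, HISAT2 2.1.0, StringTie 2.1.3b and the build mm10. How shared reads were assigned, and whether strand was used, is not given in the sources used here.

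The cytokine genes and all lists were chosen with earlier results of these data known. The genes described are all 10 cytokines, their receptors with a mean of at least 1 FPKM in any group, in each other pathway list the 2 largest rises and 2 largest falls past the threshold with both drugs against Control, and the 3 genes most like Csf2, Il3, Lif and Tnf. Further genes (Osmr, Thy1, Il21, Prss34, Cyp11a1) were described after their values were seen where a result turned on them.

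Counts were scaled by TMM and tested with edgeR 4.0.16 in R 4.3.3 (glmQLFit and glmQLFTest, all 4 groups in 1 fit, Benjamini-Hochberg), over the 15197 genes that reached 0.5 FPKM in 3 or more samples. Standard errors are the log2 fold change divided by the square root of F. The test was tried on simulated data. Libraries of 43402632 to 64290105 counts limit only genes with few reads, here Il3 and, in samples with FK506, Csf2 (57, 80 and 22 counts with FK506, 75, 101 and 50 with both). A gene that never exceeded 3 counts within a group was treated as at the floor there, a limit for counting error only. Replicates differed by more than sampling noise. DESeq2 1.42.0, limma 3.58.1 on log2(FPKM + 1), log2(FPKM + 0.1) and quantile-normalized FPKM, other scalings, no filter, a replicate block and leaving out each replicate were alternatives. Motifs were counted on GENCODE M21 UTRs and RefSeq promoters.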

Additional observations from a re-analysis of the deposited data

Results flagged for a closer look

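The effect of Metformin on 7 of the 10 cytokine genes differed between cells with and without FK506, by the interaction term in edgeR, beside 22.5% of all genes tested with a positive and 24% with a negative one. On the log2 scale, the effect on top of FK506 minus the effect without it was 3.93 for Lif (adjusted p = 1.83e-14), 2.72 for Csf2 (1.40e-06), 2.29 for Tgfb3 (5.41e-08), 1.18 for Lta (1.57e-09), 1.04 for Osm (2.67e-07) and 0.51 for Tnf (9.24e-06). For Tgfb1 it was -0.22 (adjusted p = 0.00422). With replicates left out in turn, it lay between 3.83 and 3.98 for Lif, 2.45 and 3.11 for Csf2, 2.21 and 2.42 for Tgfb3, 1.11 and 1.25 for Lta, 0.98 and 1.11 for Osm, 0.48 and 0.54 for Tnf, and -0.26 and -0.19 for Tgfb1.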

How the results depend on the processing

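For the 10 genes in 6 comparisons, 826 of 900 values under the alternatives kept their direction and their side of the threshold, 27 lost a call, 23 gained one and 24 changed sign; the cause was not tested. With FK506 against Control, the 9 called genes kept their calls under every alternative. Tgfb1 turned in that comparison with no filter (-0.014), and with replicates left out it ran from -0.0053 (without Control replicate 3) to 0.057. With both drugs against Control, Tgfb1 was 0.17 in limma with either pseudocount, 0.33 on quantile-normalized FPKM and 0.19 scaled to T cell genes, and from -0.044 to 0.0058 with replicates left out, positive without Control replicate 2 (0.0046) or Metformin+FK506 replicate 2. On quantile-normalized FPKM, Ltb with Metformin was 0.12, Tgfb1 against FK506 0.012 and against Metformin 0.030, Tgfb3 against Metformin -0.053 and the Ltb interaction -0.049. Scaled to T cell genes, Ltb against FK506 was -0.076, Il3 -0.048, and the interaction -0.095 for Csf1 and -0.066 for Ltb. Il3 against FK506 was -0.0069 in DESeq2, -0.0075 and -0.038 in limma (pseudocounts 1 and 0.1), -0.52 and -0.39 without FK506 replicates 2 and 3, and from -4.29 (without Metformin+FK506 replicate 2) to 4.35 (without FK506 replicate 1). Its interaction without these 2 was -1.41 and 7.23. Against FK506, 2 genes changed in limma with either pseudocount, both higher, and scaled to T cell genes 2 were higher and 2 lower. Pathway genes under that scaling numbered 14 higher (22 otherwise) and 33 lower (19) against FK506, and 20 (31) with a positive interaction. Replicate numbers did not pair the samples (18 pairs, r from -0.09 to 0.05); with a replicate block the Metformin change of Tnf was -0.12 (adjusted p = 0.0593), and no other call of the 10 genes changed. Leaving out replicates moved the number of genes changed from 3 to 4 against FK506, 8 to 9 with Metformin against Control and against Metformin, and 7 to 8 for the interaction. Few reads limit Il3 and, in samples with FK506, Csf2, whose value with both drugs against FK506 ran from 0.33 to 0.98 with replicates left out.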
